A study of Mus musculus with 6 samples.

Results

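The genes described here encode 10 secreted growth factors that bind receptors of the ERBB family. They are Egf, Tgfa, Areg, Ereg, Hbegf, Btc and Epgn, which belong to the EGF branch, and the neuregulins Nrg1, Nrg2 and Nrg4. They were taken by name from a table of 23449 genes, with earlier results of these data known, and each name matched 1 row. Messenger RNA was sequenced from 6 cultured mouse mammary cell lines of female FVB/N origin, 3 labelled EIC (genotype EIC/WT) and 3 labelled 16IC (genotype 16IC/WT). Doxycycline at 10 ug/mL was present for all 6 lines, in DMEM with 10% serum, insulin, pituitary extract and EGF itself, so each line received EGF protein from the medium. From background on the study, doxycycline turns on normal ErbB2 (HER2) in the EIC lines, while the 16IC lines carry a HER2 splice form with 1 exon missing. No line was kept without doxycycline, so the receptor form and any other difference between the lines cannot be told apart. The labels do not say whether the lines of a group came from separate animals, and p-values therefore measure only the spread between these samples.

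ERBB ligands are made as membrane-anchored precursors, and metalloproteases of the ADAM family cut most of them free. Amphiregulin, TGF-alpha, EGF and epigen act through the EGF receptor, while betacellulin, HB-EGF and epiregulin can also bind ERBB4. Neuregulins bind ERBB3 or ERBB4. ERBB2 has no ligand of its own and signals as the partner of the other receptors. In the mammary gland amphiregulin is known as the ligand through which estrogen drives duct growth.

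The deposited counts per line summed to between 15621563 and 17468498. Levels are in CPM, counts divided by the TMM-scaled library size in megacounts, and, where genes are compared with each other, in CPM per kb of the gene length in the table. Lines differed in how closely they resembled their group. Across the 13698 genes tested, the Spearman correlation of log2 CPM was 0.989 between 16IC 1 and 16IC 2, but 0.874 and 0.880 between these and 16IC 3, within the range of 0.841 to 0.885 between groups. EIC 2 reached 0.925 and 0.917 with the other EIC lines, which reached 0.979 with each other. The epithelial keratin gene Krt8 was present in every line, from 580 CPM in 16IC 3 to 2652 CPM in 16IC 1. Epcam, another defining epithelial marker, was at 0.456, 1.08 and 3.79 CPM in EIC 1 to 3 against 1160, 1345 and 51.1 CPM in 16IC 1 to 3. Of 14 epithelial genes, 13 had a positive log2 fold change of 16IC over EIC, and edgeR called 3 higher (1.25% of all tested genes). These 3, named after their values were seen, were Esrp1, Esrp2 and Elf5. Epcam was among the 13 but was not called (edgeR adjusted p = 0.0517). Krt19, chosen after its values were seen, went the other way. It had 7.70, 198 and 10.1 CPM in EIC 1 to 3 and 0, 0 and 0.649 CPM in 16IC 1 to 3. The defining leukocyte gene Ptprc and endothelial gene Cdh5 stayed at or under 0.306 and 0.0622 CPM, while other genes of these lists, chosen after their values were seen, were higher, with Cd68 at 7.40 to 47.6 CPM, Csf1r at up to 4.65 CPM and Kdr at up to 3.76 CPM.

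Areg and Hbegf were the most abundant ligand transcripts per length, and no group difference passed the test in the 9 ligand genes that could be tested. Of these 9, the quasi-likelihood test of edgeR, Benjamini-Hochberg adjusted over all genes, called 0, where it called 2.45% of all tested genes. At an unadjusted p under 0.05 there was 1, Nrg4, as were 22.7% of all tested genes, and limma-voom also called 0, against 2.1% of all tested genes. DESeq2 called 1 of 10, Ereg, where it called 12.8% of the genes it tested. Ereg had enough counts in only 2 lines and did not pass the filter on low counts. The log2 fold changes of 16IC over EIC were positive for 5 of the 9 genes and negative for 4, with a median of 0.60 against -0.0044 over all tested genes. Lines of the same group often differed widely. The median within-group SD of log2 CPM was 0.92 for the 9 genes and 0.41 over all tested genes, and each of the 9 lay above the latter.

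**Figure D1:**
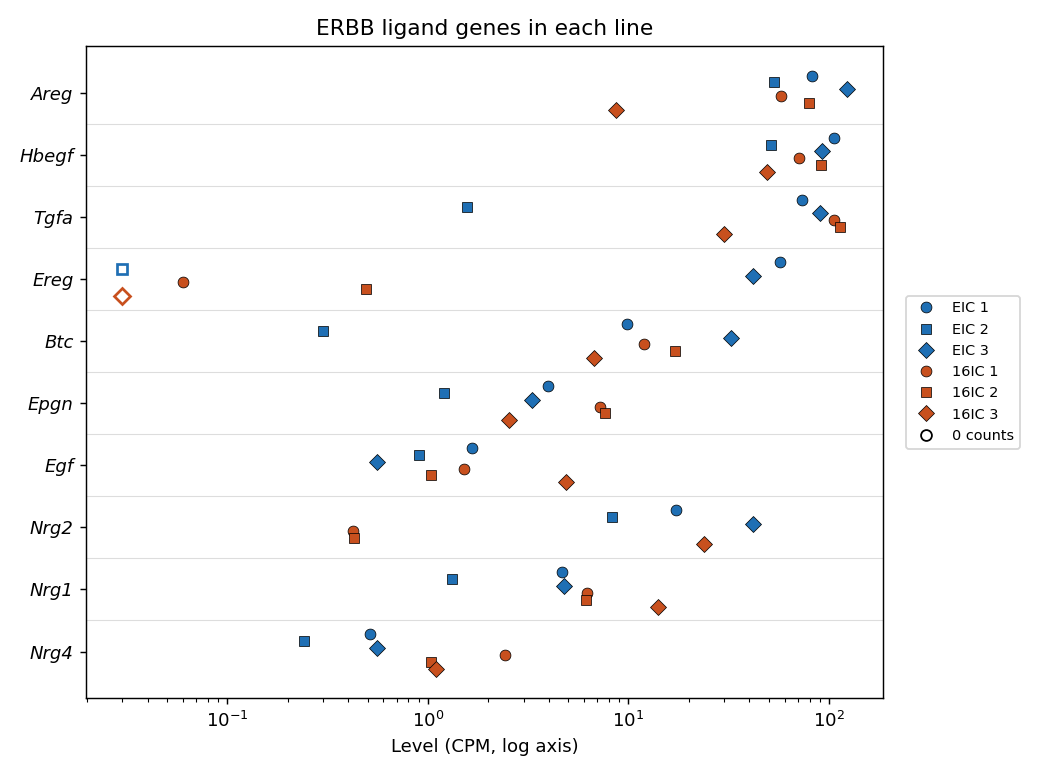
Level of each ligand gene in each of the 6 lines (CPM, log axis), with blue symbols for EIC and orange for 16IC, and open symbols at the left edge for 0 counts. Tgfa and Btc are lowest in EIC 2, where Ereg has 0 counts, Areg is lowest in 16IC 3, and Nrg2 is near 0.4 CPM in 16IC 1 and 16IC 2 alone.

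Areg encodes amphiregulin (ENSMUSG00000029378, chromosome 5, 91139599 to 91148432 on mm10, plus strand). It had 82.2, 53.1 and 122 CPM in EIC 1 to 3 and 57.6, 79.7 and 8.63 CPM in 16IC 1 to 3. The groups overlapped, and 16IC 3, at 133 counts, lay far below the other 5 lines. The group means were 85.9 ± 34.8 CPM over the EIC lines against 48.6 ± 36.4 CPM over the 16IC lines (SD, n = 3). EdgeR did not call the difference (log2 fold change -0.82, SE 0.75, 95% interval -2.65 to 1.01, adjusted p = 0.571). Without 16IC 3 it was -0.33. The level in 16IC 3 was 6.68-fold below 16IC 1 and 9.23-fold below 16IC 2. By a mark of over 4-fold below both other lines of its group, chosen after the values were seen, Areg was the 1 tested ligand gene that stood low in 16IC 3, as did 4.04% of all tested genes.

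Hbegf encodes heparin-binding EGF-like growth factor, a ligand made as a precursor that ADAM proteases release (ENSMUSG00000024486, chromosome 18, 36504929 to 36515805, minus strand). It was the steadiest of the abundant ligands, with 106, 51.4 and 92.3 CPM in EIC 1 to 3 and 70.8, 91.4 and 48.8 CPM in 16IC 1 to 3. The ranges of the 2 groups overlapped, and the lowest line of each, EIC 2 and 16IC 3, could not be separated by counting error (Poisson 95% intervals of 48.0 to 54.9 and 45.4 to 52.4 CPM). These intervals cover counting error only and leave out the spread between lines. They can be too narrow even for counting error, since reads without molecular identifiers are not independent molecules. For Hbegf the fitted log2 fold change was -0.24 (SE 0.35, 95% interval -1.09 to 0.60, edgeR adjusted p = 0.727).

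Tgfa encodes TGF-alpha (ENSMUSG00000029999, chromosome 6, 86195223 to 86275719, plus strand). It had 73.2, 1.56 and 90.5 CPM in EIC 1 to 3 and 106, 114 and 30.1 CPM in 16IC 1 to 3. EIC 2, at 26 counts, was 46.8-fold below EIC 1 and 57.9-fold below EIC 3. The other EIC lines lay between 16IC 3 and the remaining 16IC lines, so the groups overlapped. Between the groups the log2 fold change of Tgfa came to 0.60 (SE 1.19, 95% interval -2.29 to 3.49, edgeR adjusted p = 0.806), and it was 0.021 without EIC 2.

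Btc encodes betacellulin (ENSMUSG00000082361, chromosome 5, 91357261 to 91402994, minus strand). Its levels were 9.87, 0.301 and 32.6 CPM in EIC 1 to 3 and 12.0, 17.1 and 6.75 CPM in 16IC 1 to 3. As for Tgfa, EIC 2 was the low line, with 5 counts, 32.8-fold below EIC 1 and 108-fold below EIC 3. For Btc the fitted value was -0.25 on the log2 scale (SE 1.24, 95% interval -3.27 to 2.76, edgeR adjusted p = 0.926), and its sign turned without EIC 3 (1.22), without 16IC 3 (0.028) and in limma-voom (1.25). Tgfa and Btc were the 2 tested ligand genes that lay over 4-fold below both other EIC lines in EIC 2, as did 4.85% of all tested genes. Across the 6 lines the log2 levels of Tgfa and Btc had a Pearson correlation of 0.96, a description with EIC 2 as the lowest line for both.

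Ereg encodes epiregulin (ENSMUSG00000029377, chromosome 5, 91074622 to 91093646, plus strand). It was present in EIC 1 and EIC 3, with 1001 and 674 counts, and nearly or fully silent elsewhere. EIC 2 had 0 counts, and 16IC 1 to 3 had 1, 8 and 0. In CPM these are 57.1, 0 and 41.9 for EIC 1 to 3 and 0.0602, 0.490 and 0 for 16IC 1 to 3. A count of 0 allows up to 3 counts, 0.180 CPM in EIC 2 and 0.195 CPM in 16IC 3. The measured levels of EIC 1 and EIC 3 were 316-fold and 232-fold above that ceiling for EIC 2. These folds leave out counting error in EIC 1 and EIC 3. The groups overlapped because EIC 2 lay with the 16IC lines. Fitted without a low-count filter, edgeR did not call Ereg (log2 fold change -7.45, adjusted p = 0.162, with 0.951% of genes called), and without EIC 2 it did (log2 fold change -8.01, adjusted p = 0.0451, where 1.96% of tested genes were called). EIC 2 was the only EIC line with 0 counts, and without it Ereg passed the filter through EIC 1 and EIC 3 alone. That call followed from the line left out and is no support for a group difference. DESeq2 on all 6 lines gave an adjusted p of 0.0491, and the authors' deposited table gives 0.0506, with 8.63% of its genes under 0.05. Both give a log2 fold change of -7.52 from the same counts, so they are not separate results. The antisense gene Gm19610 overlaps Ereg and had 9 and 3 counts in EIC 1 and EIC 3 and 0 in the other lines. The sources used here do not state whether counting used strand, so reads from that overlap cannot be told apart.

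Epgn encodes epigen (ENSMUSG00000035020, chromosome 5, 91027464 to 91035215, plus strand). It had 3.99, 1.20 and 3.30 CPM in EIC 1 to 3 and 7.23, 7.65 and 2.53 CPM in 16IC 1 to 3. The highest lines were 16IC 1 and 16IC 2, while 16IC 3 lay among the EIC lines. A difference of 1.03 on the log2 scale (SE 0.63, 95% interval -0.48 to 2.55) was not called (edgeR adjusted p = 0.382). Egf itself (ENSMUSG00000028017, chromosome 3, 129677565 to 129755316, minus strand) was nearly absent as a transcript. It had 1.65, 0.902 and 0.560 CPM in EIC 1 to 3 and 1.51, 1.04 and 4.86 CPM in 16IC 1 to 3. The line 16IC 3, with 75 counts, was the only one whose counting interval (3.83 to 6.10 CPM) lay clear of all others. Egf had a log2 fold change of 1.24 (SE 0.74, 95% interval -0.56 to 3.04, edgeR adjusted p = 0.376), which came to 0.29 when 16IC 3 was left out.

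Among the neuregulins, Nrg2 (ENSMUSG00000060275, chromosome 18, 36017707 to 36197380, minus strand), a ligand of ERBB3 and ERBB4, was the most abundant per length in the EIC lines and 16IC 3, and the least abundant in 16IC 1 and 16IC 2. It had 17.2, 8.30 and 41.8 CPM in EIC 1 to 3 and 0.422, 0.428 and 23.8 CPM in 16IC 1 to 3. Both 16IC 1 and 16IC 2 were thus almost silent, at 7 counts each, while 16IC 3 had 367 counts and lay inside the EIC range, 55.6-fold above 16IC 2 and 56.5-fold above 16IC 1. Over all 6 lines the log2 fold change was -1.45 (SE 1.56, 95% interval -5.22 to 2.32, edgeR adjusted p = 0.632). Leaving out 16IC 3 gave -5.70, which edgeR called (adjusted p = 0.0220, where 13.4% of tested genes were called). That fit drops the 16IC line that lay with EIC and keeps 16IC 1 and 16IC 2, the closest pair of lines (correlation 0.989). The call is therefore no support for a group difference. With 16IC 1 and 16IC 2 averaged and 16IC 3 kept, the value was -0.89 (edgeR adjusted p = 0.794, where 0% of tested genes were called). Nrg2 was also the 1 tested ligand gene over 4-fold above both other 16IC lines in 16IC 3, as were 6.12% of all tested genes. The summed level of 8 mesenchymal marker genes was lowest in the same 2 lines. This sum, led by Vim and Fn1, was 4559 to 9176 CPM in the EIC lines and 3982 CPM in 16IC 3, but 242 and 333 CPM in 16IC 1 and 16IC 2. None of the 8 was at 0 in any line and edgeR called 0 of them (2 at an unadjusted p under 0.05), against 2.45% and 22.7% of all tested genes. Cdh2 of the same list, also chosen after its values were seen, was not low in those lines, with 95.3 and 102 CPM in 16IC 1 and 16IC 2 against 88.2 to 149.7 CPM in EIC. Sparc and Twist1, chosen likewise, were low in 16IC 3 too, at 31.1 and 19.7 CPM against 282 to 722 and 79.1 to 113 CPM in EIC. For 4 of the 8 (Vim, Zeb2, Twist1 and Sparc) each 16IC line, 16IC 3 included, lay below every EIC line. Among all tested genes 31.4% had groups that did not overlap. The part of these markers in the Nrg2 result was not tested. In RNA from whole cultures, fewer cells of a type and less RNA per cell cannot be told apart.

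Nrg1 encodes neuregulin 1, a ligand of ERBB3 and ERBB4 with many isoforms (ENSMUSG00000062991, chromosome 8, 31814551 to 32884029, minus strand). It had 4.68, 1.32 and 4.79 CPM in EIC 1 to 3 and 6.20, 6.12 and 14.1 CPM in 16IC 1 to 3. The lowest 16IC line was higher than the highest EIC line, although the counting intervals of 16IC 2 (4.98 to 7.44 CPM) and EIC 3 (3.78 to 5.98 CPM) overlapped. Nrg1 had a log2 fold change of 1.29 (SE 0.62, 95% interval -0.21 to 2.79, edgeR adjusted p = 0.281). Nrg4 (ENSMUSG00000032311, chromosome 9, 55220222 to 55326844, minus strand) encodes a neuregulin that binds ERBB4. It had 9, 4 and 9 counts in EIC 1 to 3 and 40, 17 and 17 counts in 16IC 1 to 3. Its groups did not overlap either, with means of 0.438 ± 0.172 CPM over the EIC lines against 1.52 ± 0.773 CPM over the 16IC lines (SD, n = 3). But the counting intervals of 16IC 2 (0.606 to 1.67 CPM) and 16IC 3 (0.642 to 1.77 CPM) overlapped that of EIC 3 (0.256 to 1.06 CPM). For Nrg4 the estimate was 1.78 on the log2 scale (SE 0.57, 95% interval 0.39 to 3.16), and with an unadjusted p of 0.0199 the edgeR adjusted p was 0.140. Nrg1 and Nrg4 were the 2 ligand genes whose groups did not overlap, both higher in 16IC, which 17.2% of all tested genes were (31.4% in either direction). The gene body of Nrg4 overlaps the opposite-strand gene Fbxo22, which had 393 to 731 counts, and reads of the 2 genes cannot be told apart where counting ignored strand.

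**Figure D2:**
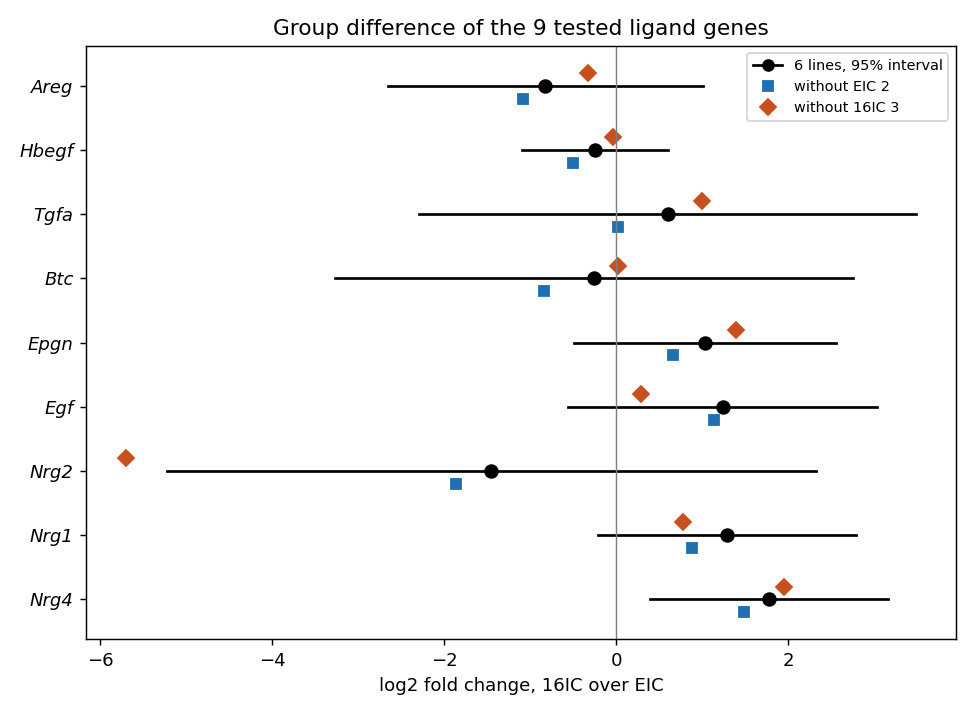
Log2 fold change of 16IC over EIC for the 9 ligand genes tested, with all 6 lines (black, 95% interval), without EIC 2 (blue squares) and without 16IC 3 (orange diamonds). Every interval but that of Nrg4 spans 0, and Nrg2 moves from -1.45 to -5.70 when 16IC 3 is left out.

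The make-up of the ligand pool was compared on the scale of CPM per kb, on which genes of different length can be set side by side. In EIC the order was Areg with 70.7 ± 28.7, Hbegf with 35.1 ± 12.0, Tgfa with 8.49 ± 7.27, Ereg with 7.99 ± 7.16, Nrg2 with 7.28 ± 5.63 and Btc with 3.15 ± 3.67 CPM per kb (SD, n = 3). Areg was above Hbegf in each EIC line, but their ranges overlapped. Areg had 43.7 CPM per kb in EIC 2 and Hbegf 44.8 CPM per kb in EIC 1. The ranges of the last 4 over the 3 lines overlapped too. Epgn followed with 1.57 ± 0.803 CPM per kb, and Nrg1, Egf and Nrg4 were each under 0.35 CPM per kb. In 16IC the order was Areg with 40.0 ± 29.9, Hbegf with 29.6 ± 8.97, Tgfa with 12.8 ± 7.13, Epgn with 3.21 ± 1.57, Nrg2 with 2.67 ± 4.38 and Btc with 2.64 ± 1.14 CPM per kb. There the single lines of Areg and Hbegf overlapped in range, as did those of Epgn, Nrg2 and Btc, and those of Nrg2 and Tgfa. The levels of Nrg1, Nrg4, Egf and Ereg in 16IC were 0.850, 0.250, 0.219 and 0.0444 CPM per kb.

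As shares of the sum over the 10 genes, Areg held 45.7, 63.1 and 53.9% in EIC 1 to 3, set against 46.7, 50.2 and 15.8% in 16IC 1 to 3. Hbegf held 30.2, 31.2 and 20.8% in EIC 1 to 3, set against 29.4, 29.4 and 45.8% in 16IC 1 to 3. These 2 genes together made up 74.7 to 94.3% of the sum in the 5 lines other than 16IC 3, where the leading pair was Hbegf and Nrg2 with 63.0%. The neuregulins summed to 4.13, 4.13 and 7.55% in EIC 1 to 3, to 1.12 and 0.689% in 16IC 1 and 16IC 2, and to 20.6% in 16IC 3. Tgfa held 10.3 to 16.1% in 16IC and 7.61, 0.348 and 7.46% in EIC 1 to 3. The sum itself was 148, 69.3 and 187 CPM per kb in EIC 1 to 3 and 102, 131 and 44.9 CPM per kb in 16IC 1 to 3, so the lowest totals were in the line of each group that stood apart. These shares describe transcripts and carry no test, and EGF protein in the medium is not part of them.

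**Figure D3:**
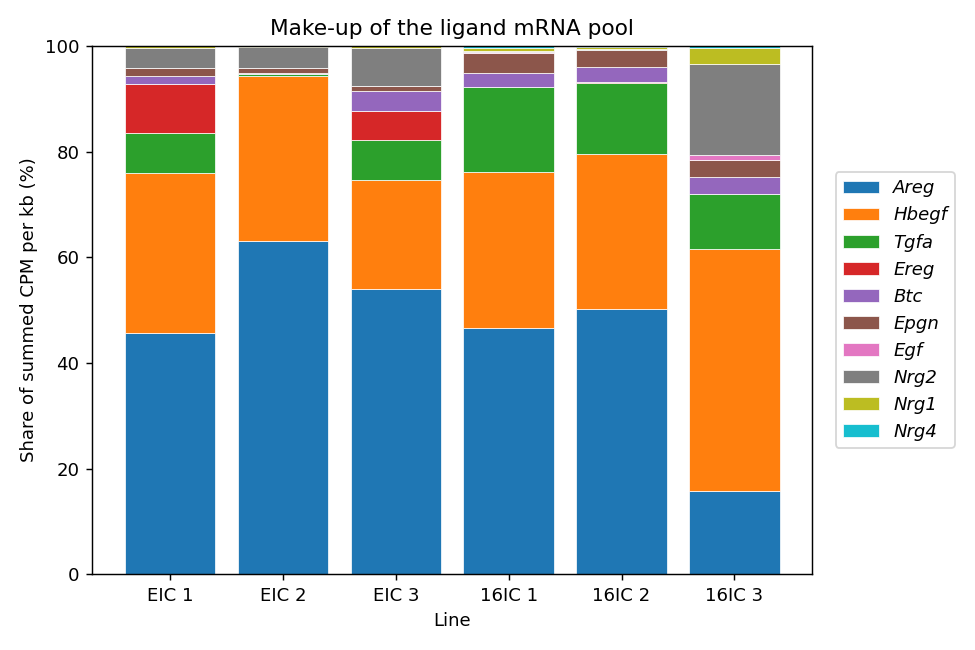
Share of each ligand gene in the summed level of the 10 genes (percent of CPM per kb), 1 bar per line. Areg and Hbegf fill most of each bar, and in 16IC 3 Areg holds 15.8%, Hbegf 45.8% and Nrg2 17.2%.

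Epgn, Ereg, Areg and Btc lie next to each other on chromosome 5, within 376 kb on mm10. The gap is 39.4 kb from Epgn to Ereg, 46.0 kb from Ereg to Areg and 209 kb from Areg to Btc. The 4 genes did not share one pattern. In EIC 2 Ereg had 0 counts and Btc 5, while Areg between them had 883. In 16IC 3 Areg was at its lowest and Btc had 104 counts. Of 18 other genes of the table that start within 500 kb of the cluster, 8 were tested and none passed the edgeR threshold, which 2.45% of all tested genes did. An unadjusted p under 0.05 was found for 2, near the share of 22.7% over all tested genes. The chemokine genes on the Epgn side varied between lines too. Cxcl2, a neutrophil attractant, had 52.9, 0.241 and 135 CPM in EIC 1 to 3 and 0.241, 1.16 and 2.27 CPM in 16IC 1 to 3. Cxcl3 had 33.6, 1.02 and 29.9 CPM in EIC 1 to 3 and at most 1.30 CPM in 16IC. Like Ereg, both were high in EIC 1 and EIC 3 and low in EIC 2 and the 16IC lines. The chemokine genes Cxcl5 and Cxcl1 were not, since EIC 2 and 16IC 3 reached 31.8 and 79.7 CPM for Cxcl5, and 16IC 3 reached 46.3 CPM for Cxcl1. On the Btc side, Parm1 had 305 CPM in 16IC 3 and 12.2 to 16.0 CPM in every other line, and Mthfd2l beside Epgn stayed between 14.6 and 23.0 CPM. The chemokine genes, Parm1 and Mthfd2l were chosen after their values were seen.

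**Figure D4:**
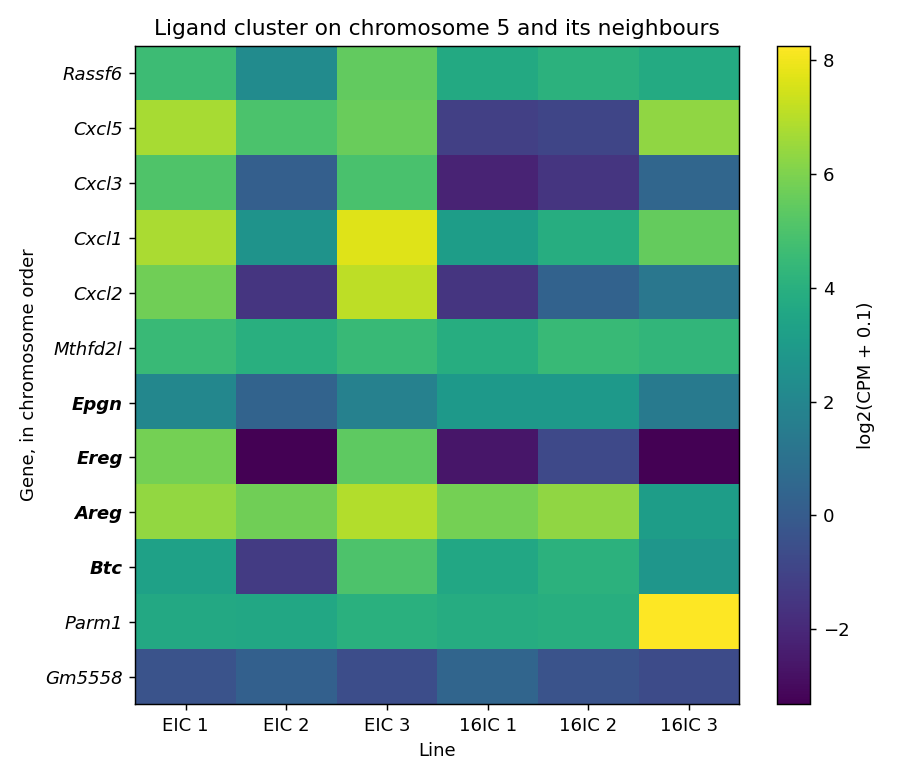
Level of the 4 clustered ligand genes (bold) and the 8 tested neighbours in chromosome order, as log2(CPM + 0.1) in each line. Ereg, Cxcl2 and Cxcl3 are high in EIC 1 and EIC 3 alone, Areg is lowest in 16IC 3, and Parm1 stands out in 16IC 3.

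The RefSeq table of promoters on GRCm38.p6 matched 6 of the 10 genes by symbol. The 250 bases before the start are shown for 3 of them: Areg, which was transcribed in all 6 lines, and Btc and Tgfa, which were both lowest in EIC 2. Capitals mark matches, on either strand, to the letters TGANTCA for AP-1, TGACGTCA for the cyclic AMP response element (CRE), TATAAA for the TATA box and GGGCGG for the GC box, and no match overlapped another.
Areg, chr5:91139349-91139598, plus strand: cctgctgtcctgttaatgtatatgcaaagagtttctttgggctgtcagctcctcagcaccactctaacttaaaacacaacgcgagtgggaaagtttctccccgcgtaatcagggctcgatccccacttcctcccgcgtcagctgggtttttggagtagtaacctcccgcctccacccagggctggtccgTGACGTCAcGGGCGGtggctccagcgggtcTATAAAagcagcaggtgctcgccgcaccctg
Btc, chr5:91402995-91403244, minus strand: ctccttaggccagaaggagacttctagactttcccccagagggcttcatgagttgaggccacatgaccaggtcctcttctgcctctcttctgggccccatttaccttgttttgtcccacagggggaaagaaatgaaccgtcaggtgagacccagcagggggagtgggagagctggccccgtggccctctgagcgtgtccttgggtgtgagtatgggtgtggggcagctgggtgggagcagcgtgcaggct
Tgfa, chr6:86194972-86195221, plus strand: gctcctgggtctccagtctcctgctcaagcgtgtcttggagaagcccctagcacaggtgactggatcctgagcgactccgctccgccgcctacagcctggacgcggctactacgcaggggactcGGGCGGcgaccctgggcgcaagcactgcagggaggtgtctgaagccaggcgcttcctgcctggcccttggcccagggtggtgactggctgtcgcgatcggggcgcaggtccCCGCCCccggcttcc
The Areg window holds a CRE match from 61 bases before the start, a GC box from 52 and a TATA box from 31. The Tgfa window holds a GC box on the plus strand from 126 bases and 1 on the other strand from 15 bases before the start, and its GC content is 69.2% against a median of 52.4% over all windows. The Btc window, with 59.6% GC, holds none of the 4. Of 32851 windows of the same length, 1.55% hold the CRE letters, 12.4% the TATA box, 32.7% the GC box and 6.75% the AP-1 letters. A match describes the letters and is not evidence of binding.

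Other genes resembled single ligands across the 6 lines. For each tested ligand gene with a mean of at least 5 CPM, the 3 closest of 10225 other genes were taken by Pearson correlation of log2 CPM, a description over 6 lines that share their grouping and for which the best of so many genes is always close. Areg was closest to Zfhx4, a zinc finger gene (r = 0.999), Gnaz and Zkscan17. Zfhx4 had 33.2, 22.0 and 50.9 CPM in EIC 1 to 3 and 22.5, 31.0 and 2.46 CPM in 16IC 1 to 3, again with 16IC 3 as the low line. Tgfa was closest to Mgea5 (r = 0.999), Tspan7 and Gipc2, and Btc to Htatip2 (r = 0.994), Arhgap28 and Csf3. Csf3, the gene of granulocyte colony stimulating factor, had 0 CPM in EIC 2 and 27.8 and 131 CPM in EIC 1 and EIC 3. Hbegf was closest to Sssca1, Usp42 and Chac1, and Nrg1 to Snapc1, Mtg2 and Grik5. Nrg2 was closest to Mill2 (r = 0.998), the interferon-induced gene Bst2 and Selenom, each lowest in 16IC 1 and 16IC 2. Bst2 had 406, 366 and 526 CPM in EIC 1 to 3 and 185, 173 and 474 CPM in 16IC 1 to 3.

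Among the receptors, Egfr and Erbb2 were higher in each 16IC line than in any EIC line, and Erbb3 in 16IC 1 and 16IC 2, but none passed the edgeR test with all 6 lines. All 3 tested receptors had an unadjusted p under 0.05, as had 22.7% of all tested genes, and 2 had groups that did not overlap, as had 31.4%. Egfr, the receptor of the EGF branch, had 4.45, 3.31 and 4.73 CPM in EIC 1 to 3 and 39.0, 42.5 and 9.79 CPM in 16IC 1 to 3 (edgeR, log2 fold change 2.87 with SE 0.59, adjusted p = 0.0621). Erbb3, the main neuregulin receptor here, had 12.0, 5.53 and 16.1 CPM in EIC 1 to 3 and 161, 172 and 6.42 CPM in 16IC 1 to 3 (edgeR, log2 fold change 3.33 with SE 1.13, adjusted p = 0.154). The line 16IC 3 thus had Nrg2 at an EIC-like level and Erbb3 within the EIC range. Without 16IC 3 edgeR called Egfr, Erbb3 and Erbb2 (adjusted p = 0.00556, 0.0112 and 0.0259), in a fit that called 13.4% of all genes. With 16IC 1 and 16IC 2 averaged and 16IC 3 kept, edgeR called none of these 3 (adjusted p = 0.204, 0.329 and 0.302), nor any other gene. DESeq2 with all 6 lines, which called 12.8%, called Egfr and Erbb3. Erbb2 had 78.2 ± 9.75 CPM over the EIC lines against 132 ± 26.3 CPM over the 16IC lines (SD, n = 3, edgeR adjusted p = 0.108), and whether transgene reads were counted there is not known. Erbb4 had 2 counts in EIC 3, 2 in 16IC 3 and 0 in the other 4 lines, so transcripts of this receptor were not detectable beyond that at this depth.

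Of 17 tested genes for ligand release and trafficking, edgeR called 3, all higher in 16IC, where 1.25% of all tested genes were called higher. The list was chosen with earlier results of these data known, so these counts only describe it. The median log2 fold change of the list was 0.23, against -0.0044 over all tested genes. Pcsk6, a proprotein convertase gene, rose from a mean of 1.28 ± 1.02 CPM to one of 128 ± 53.8 CPM (edgeR, log2 fold change 6.64 with SE 0.92, adjusted p = 0.0371). Nkd2, whose product escorts TGF-alpha to the cell surface, rose from a mean of 1.17 ± 0.835 CPM to one of 116 ± 59.8 CPM (edgeR adjusted p = 0.0360). Bace2, a membrane aspartyl protease gene, rose from a mean of 0.138 ± 0.0658 CPM to one of 7.58 ± 2.89 CPM (edgeR adjusted p = 0.0274). Adam12, a metalloprotease able to shed HB-EGF, had 13.4, 5.05 and 2.24 CPM in EIC 1 to 3 and 522, 520 and 16.2 CPM in 16IC 1 to 3 without passing the edgeR test (adjusted p = 0.0899), though DESeq2 called it. The general sheddase genes Adam17 and Adam10, named here for their role after their values were seen, overlapped between the groups. Adam17 had 159 ± 34.3 CPM over the EIC lines against 154 ± 13.5 CPM over the 16IC lines (log2 fold change -0.043, 95% interval -0.54 to 0.46), and the interval for Adam10 was -0.53 to 0.79. Without EIC 1, EIC 3, 16IC 1 or 16IC 2, where 0, 0, 0.0351 and 0% of all genes were called, each of these calls was lost, with the adjusted p of Nkd2 between 0.103 and 0.154. With any 1 line left out, the log2 fold changes ran from 6.11 to 7.24 for Pcsk6, 6.12 to 7.07 for Nkd2 and 5.36 to 5.97 for Bace2. The call of Pcsk6 was also lost without EIC 2 (edgeR adjusted p = 0.0654).

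Of 12 tested genes in a list of receptor feedback, edgeR called 2, both lower in 16IC, where 1.2% of all tested genes were called lower, and 10 of the 12 had a negative log2 fold change (median -0.47). This list too was chosen with earlier results of these data known, so its counts are descriptive. Errfi1, which encodes the EGF receptor inhibitor MIG6, fell from a mean of 409 ± 72.7 CPM to one of 152 ± 28.3 CPM (edgeR, log2 fold change -1.43 with SE 0.23, adjusted p = 0.0432). Socs3, a feedback inhibitor of cytokine receptors, fell from a mean of 47.9 ± 6.87 CPM to one of 14.0 ± 2.39 CPM (edgeR, log2 fold change -1.78 with SE 0.22, adjusted p = 0.0360). For these genes 16IC 3 lay with the other 16IC lines, at 120 CPM for Errfi1 and 16.7 CPM for Socs3. Cblb, a ubiquitin ligase gene, had 67.5 and 41.1 CPM (adjusted p = 0.0809), and Lrig1, which promotes receptor breakdown, 382 and 249.7 CPM (adjusted p = 0.145), without passing the edgeR test, though DESeq2 called Cblb. The calls of Errfi1 and Socs3 were lost without EIC 1, EIC 3, 16IC 1 or 16IC 2, with log2 fold changes of -1.52 to -1.28 and -1.93 to -1.68 when any 1 line was left out, and that of Errfi1 also without EIC 2 (adjusted p = 0.0612) and in the unfiltered fit (0.0560).

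**Figure D5:**
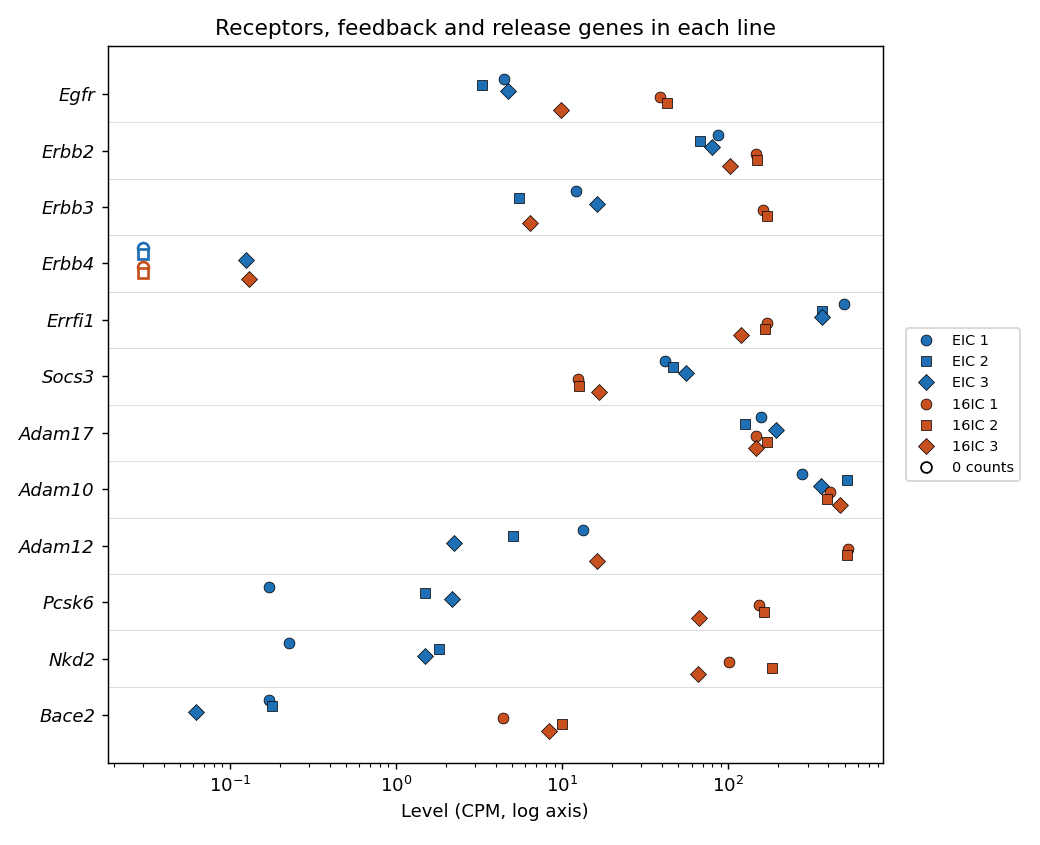
Level of receptor, feedback and release genes in each line (CPM, log axis), with blue symbols for EIC, orange for 16IC and open symbols for 0 counts. Errfi1 and Socs3 are lower in each 16IC line, Adam17 and Adam10 overlap, and Erbb3 and Adam12 of 16IC 3 lie near the EIC lines.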

How the data were processed

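All results start from the authors' deposited read counts, whole numbers for each gene in the 6 lines. The same table also holds the gene length, FPKM and the authors' normalised signal (count over 1 size factor per library). It also holds the log2 fold change and p-value of the authors' comparison. Of these, the gene length, the adjusted p-values and the log2 fold change of Ereg were used. Per the submitters' processing notes, Trimmomatic, STAR, HTSeq, edgeR and limma are named, with builds GRCm38 and mm10. DESeq2 is not among these, although the deposited log2 fold change of Ereg equals, as rounded, that of DESeq2 here (-7.52). The sources used here do not give strandedness, tool versions or the annotation. Genes passing filterByExpr (minimum count 10), 13698 in all, were tested with edgeR 4.0.16 (TMM factors, quasi-likelihood test, R 4.3.3) at a Benjamini-Hochberg adjusted p under 0.05, without a block. SE is the fold change on the log2 scale over the root of F. Library totals were 15621563 to 17468498 counts. Replicates are numbered in deposit order and EIC 2 is the line titled NT. The members and lists were chosen with earlier results of these data known. All 10 ligand genes, all receptors, up to 4 genes per other list by p, the 3 genes most like each ligand, and defining cell type markers were named. Other genes are said to be chosen after their values were seen. Alternatives were other size factors, filters, a robust fit, limma-voom 3.58.1, DESeq2 1.42.0, averaging 16IC 1 and 16IC 2, and leaving out each line. The test was tested on simulated data with the same dispersion for all genes and no line standing apart, which differs from these data. Nrg3 and Pcsk5 were not analysed here.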

Additional observations from a re-analysis of the deposited data

How the results depend on the processing

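Of the ligand genes 0 were called under 11 of the 14 alternatives, limma-voom among them. EdgeR called 1 without EIC 2 (Ereg) and 1 without 16IC 3 (Nrg2), so leaving out a line gave 0 to 1, and DESeq2 called 1 (Ereg). In both edgeR fits the line left out was the one that lay with the other group for that gene. Over all genes the count was 335, with 223 when no filter on low counts was used, 2041 in DESeq2, 0 with 16IC 1 and 16IC 2 averaged (2257 at an unadjusted p under 0.05) and 0 to 1913 when a line was left out (0 without EIC 1, EIC 3 or 16IC 2, with 2627, 2341 and 2251 at an unadjusted p under 0.05, 5 without 16IC 1, 1913 without 16IC 3). Of the receptor, release, feedback and ERK genes 5 were called, 13 in DESeq2, 0 with the averaged pair (14 at an unadjusted p under 0.05) and 0 to 14 when a line was left out. The log2 fold change of Btc turned to 1.25 in limma-voom and ran from -0.84 to 1.22 when a line was left out. The other ligand genes kept their sign under every alternative run (14 each, 6 for Ereg), with Tgfa between 0.021 and 1.70 and Nrg2 between -5.70 and -0.66. Leaving out a line, an alternative chosen after seeing the data, put the mean share of Areg between 31.3 and 48.4% in 16IC and between 49.8 and 58.5% in EIC, and that of Tgfa between 3.90 and 7.53% in EIC. No paired analysis was possible because the labels give no number that ties a line of one group to a line of the other.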

Other observations

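Genes whose transcription is known to follow ERK signalling, the main pathway below ERBB receptors, did not move one way. Of 17 tested genes edgeR called 0 with all 6 lines, with 6 at an unadjusted p under 0.05, against 2.45% and 22.7% of all tested genes, and 12 had a negative log2 fold change (median -0.82, against -0.0044 over all tested genes). Fos and Egr1, immediate early genes, were higher in each 16IC line, with 1.61 ± 0.226 against 11.1 ± 6.34 CPM and 50.5 ± 9.50 against 106 ± 12.6 CPM, and missed the threshold (edgeR adjusted p = 0.0526 and 0.0542). Fosl1, which encodes the AP-1 subunit FRA1, had 514, 124 and 519 CPM in EIC 1 to 3 and 46.3, 66.2 and 22.3 CPM in 16IC 1 to 3 (edgeR adjusted p = 0.0699). Its EIC 2 level was the lowest of the EIC lines. DESeq2, which called 12.8% of all genes, called Fos, Egr1, Fosl1 and, chosen after its values were seen, Spry2. Phlda1 averaged 27.4 ± 4.95 CPM over the EIC lines and 61.6 ± 27.1 CPM over the 16IC lines, with 16IC 3 inside the EIC range (edgeR adjusted p = 0.139).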
